A study of Mus musculus with 18 samples.

Results

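The 10 lysosomal cathepsin genes Ctsa, Ctsb, Ctsc, Ctsd, Ctse, Ctsh, Ctsk, Ctsl, Ctss and Ctsz were followed across 18 RNA-Seq samples of mouse bone marrow-derived macrophages (BMDMs). They were chosen by name, and all 10 were found among the 22852 gene symbols of the count files. BMDMs are macrophages grown in culture from marrow, here for 7 days from female C57BL/6 mice in medium conditioned by L929 cells. There were 6 groups of 3 biological replicates. Unstimulated BMDMs received no LPS (here from Salmonella), the endotoxin of Gram-negative bacteria that is sensed through TLR4. LPS-primed BMDMs received 100 ng/ml LPS for 24 h. LPS-tolerant BMDMs received the same priming dose and then 10 ng/ml LPS in fresh medium for 3 h. LPS-primed and LPS-tolerant BMDMs given 25 µM carboplatin, a DNA-crosslinking drug, for 1 h before the priming dose by the methods of the study, made up another pair of groups. The labels word the order differently, as LPS together with or followed by the drug, and name no vehicle, whereas the methods name a vehicle control for the drug. The last group received 10 ng/ml LPS as a single dose, for 3 h by the scheme of the study. The times of 24 h and 3 h are also from the methods. Priming and time in culture cannot be told apart where groups treated for 24 h are set against others. The labels do not say whether replicates came from separate mice, so p-values measure the spread between these samples, which may be technical.

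Cathepsins are proteases made as inactive zymogens, carried to late endosomes and lysosomes mostly on mannose-6-phosphate receptors, and activated there at low pH. Cathepsins B, C, H, K, L, S and Z are papain-like cysteine proteases, D and E are aspartic proteases, and A is a serine carboxypeptidase. In macrophages they digest engulfed material, trim antigens and the invariant chain of MHC class II, and can be secreted to degrade matrix. Cystatins and stefins inhibit the cysteine class.

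Depth lay between 6869667 and 14708099 gene-assigned read pairs (median 8986463). Floors given below cover counting error only. All 10 macrophage markers examined, among them Adgre1, Csf1r and Lyz2, were counted in every sample. Markers of T or NK cells, B cells, dendritic cells, neutrophils and stromal cells had at most 17 counts in any sample, apart from Ighm, S100a8, Lck, Dcn and Pdgfrb. Levels are given as CPM, the counts per 1000000 counted read pairs after TMM scaling. A gene was called when edgeR's quasi-likelihood test gave a Benjamini-Hochberg adjusted p under 0.05 over the 11305 genes tested, which included all 10 cathepsins. Same-numbered samples of different groups deviated together from their group means. A second fit, blocked on that number, is therefore given wherever it changes the call of a cathepsin. The comparisons share groups and are not independent of each other. Library size alone, used as the scaling, moved the median log2 fold change (log2FC) of all genes from -0.02 to -0.26 in LPS-primed against unstimulated BMDMs, and from -0.09 to -0.43 after a single dose of LPS.

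The genes lie apart in the mouse genome, except Ctsk and Ctss, which are neighbours on the plus strand of chromosome 3 at 95406178 to 95416732 and 95433963 to 95463717 (GRCm39, GENCODE vM39). Ctsc and Ctsd are on chromosome 7, at 87927092 to 87960096 on the plus strand and at 141929646 to 141941775 on the minus strand. Ctsa and Ctsz are on chromosome 2, at 164674778 to 164682961 and 174267304 to 174280832. Ctsl is on the minus strand of chromosome 13 at 64507151 to 64518704, Ctsb on chromosome 14 at 63358384 to 63383372, Ctsh on chromosome 9 at 89936205 to 89958148 and Ctse on chromosome 1 at 131566009 to 131603243. Ctsa overlaps Neurl2 and Pltp, Ctsb overlaps Fdft1 and Ctsz overlaps Nelfcd, each on the opposite strand. The library kit kept strand, but the strand setting of the counting is not given in the sources used here, so reads of these partners could not be told apart with certainty. Promoter sequences from RefSeq (GRCm38.p6) matched 7 of the 10 genes. Windows of 300 bases, from 250 before the transcription start to 50 after it, are shown for Ctsc, Ctsl and Ctsz, which rose with LPS priming, and for Ctsd, which did not pass the test there. Motifs found on either strand are in capitals.
Ctsc, chr7:88277835-88278134, plus strand: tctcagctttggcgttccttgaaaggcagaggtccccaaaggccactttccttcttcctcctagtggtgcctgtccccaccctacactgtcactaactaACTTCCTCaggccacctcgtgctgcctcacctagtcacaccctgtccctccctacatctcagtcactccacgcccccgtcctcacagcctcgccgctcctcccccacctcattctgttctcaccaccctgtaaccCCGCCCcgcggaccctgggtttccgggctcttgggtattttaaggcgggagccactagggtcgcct
Ctsl, chr13:64370471-64370770, minus strand: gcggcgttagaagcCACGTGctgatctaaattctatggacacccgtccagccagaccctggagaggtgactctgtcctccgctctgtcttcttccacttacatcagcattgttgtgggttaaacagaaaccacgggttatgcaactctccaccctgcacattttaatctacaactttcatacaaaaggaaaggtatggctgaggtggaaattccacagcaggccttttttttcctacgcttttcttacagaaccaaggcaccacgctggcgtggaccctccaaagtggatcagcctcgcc
Ctsz, chr2:174438990-174439289, minus strand: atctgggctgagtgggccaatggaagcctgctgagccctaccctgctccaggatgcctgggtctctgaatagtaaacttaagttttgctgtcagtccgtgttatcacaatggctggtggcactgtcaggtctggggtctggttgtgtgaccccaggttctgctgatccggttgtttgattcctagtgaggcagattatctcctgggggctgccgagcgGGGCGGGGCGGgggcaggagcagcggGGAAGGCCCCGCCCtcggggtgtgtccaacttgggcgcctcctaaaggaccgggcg
Ctsd, chr7:142387778-142388077, minus strand: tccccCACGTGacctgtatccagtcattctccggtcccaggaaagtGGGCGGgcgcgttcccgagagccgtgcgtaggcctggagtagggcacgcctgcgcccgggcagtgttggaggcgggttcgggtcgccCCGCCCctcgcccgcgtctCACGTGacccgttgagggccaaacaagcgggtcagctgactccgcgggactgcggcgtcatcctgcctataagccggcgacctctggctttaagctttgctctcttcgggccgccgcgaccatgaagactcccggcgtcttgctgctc

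The motifs searched were the E-box CACGTG, the AP-1 site TGANTCA, the PU.1 site GAGGAAGT, the interferon-stimulated response element, the kappa B site and the GC box GGGCGG. Of 32851 promoter windows, 7.15% held the E-box, 7.81% the AP-1 site, 3.2% the PU.1 site, 3.44% the interferon-stimulated response element, 8.46% the kappa B site and 35.7% the GC box. With the first base of each motif counted from the transcription start as 1, the base before it as -1 and no 0, Ctsl had an E-box at -236 and Ctsd had E-boxes at -245 and -98. Ctsc had a PU.1 motif at -151 and Ctsz a kappa B motif at -6 whose last bases overlap a GC box at 3. Further GC boxes lay at -16 in Ctsc, at -32 and -27 in Ctsz and at -204 and -117 in Ctsd. The other genes with a matched promoter, Ctss, Ctsa and Ctsk, did not pass the test with priming either. Ctss had a PU.1 motif at -2, an interferon-stimulated response element at -21 and a GC box at -55. Ctsa had E-boxes at -12 and 6 in a window and no motif in another, and Ctsk had no motif. These are matches of letters and not measured binding.

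Cathepsin transcripts were abundant in unstimulated BMDMs. The 10 genes together took 3.67% ± 0.21 (SD, n = 3) of the counted read pairs. Of these, 29.8% were from Ctsb, which encodes an endopeptidase with carboxypeptidase activity, 28.7% from Ctss, which encodes an endopeptidase that also works at neutral pH, and 28.3% from Ctsd, which encodes the main lysosomal aspartic protease. Per kilobase of coding sequence, Ctsb stood at 9172 CPM, Ctss at 8742 CPM and Ctsd at 7222 CPM. Per kilobase of the whole transcript the order of these 3 was Ctss, Ctsd and Ctsb. Ctsl followed at 1672 CPM per coding kilobase, Ctsz at 1000.2, Ctsa at 780.1, Ctsh at 237.4, Ctsc at 92.4 and Ctsk at 39.4, while per kilobase of the whole transcript Ctsa stood above Ctsl and Ctsz. Ctse was lowest on both scales, at 1.63 CPM per coding kilobase.

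**Figure D1:**
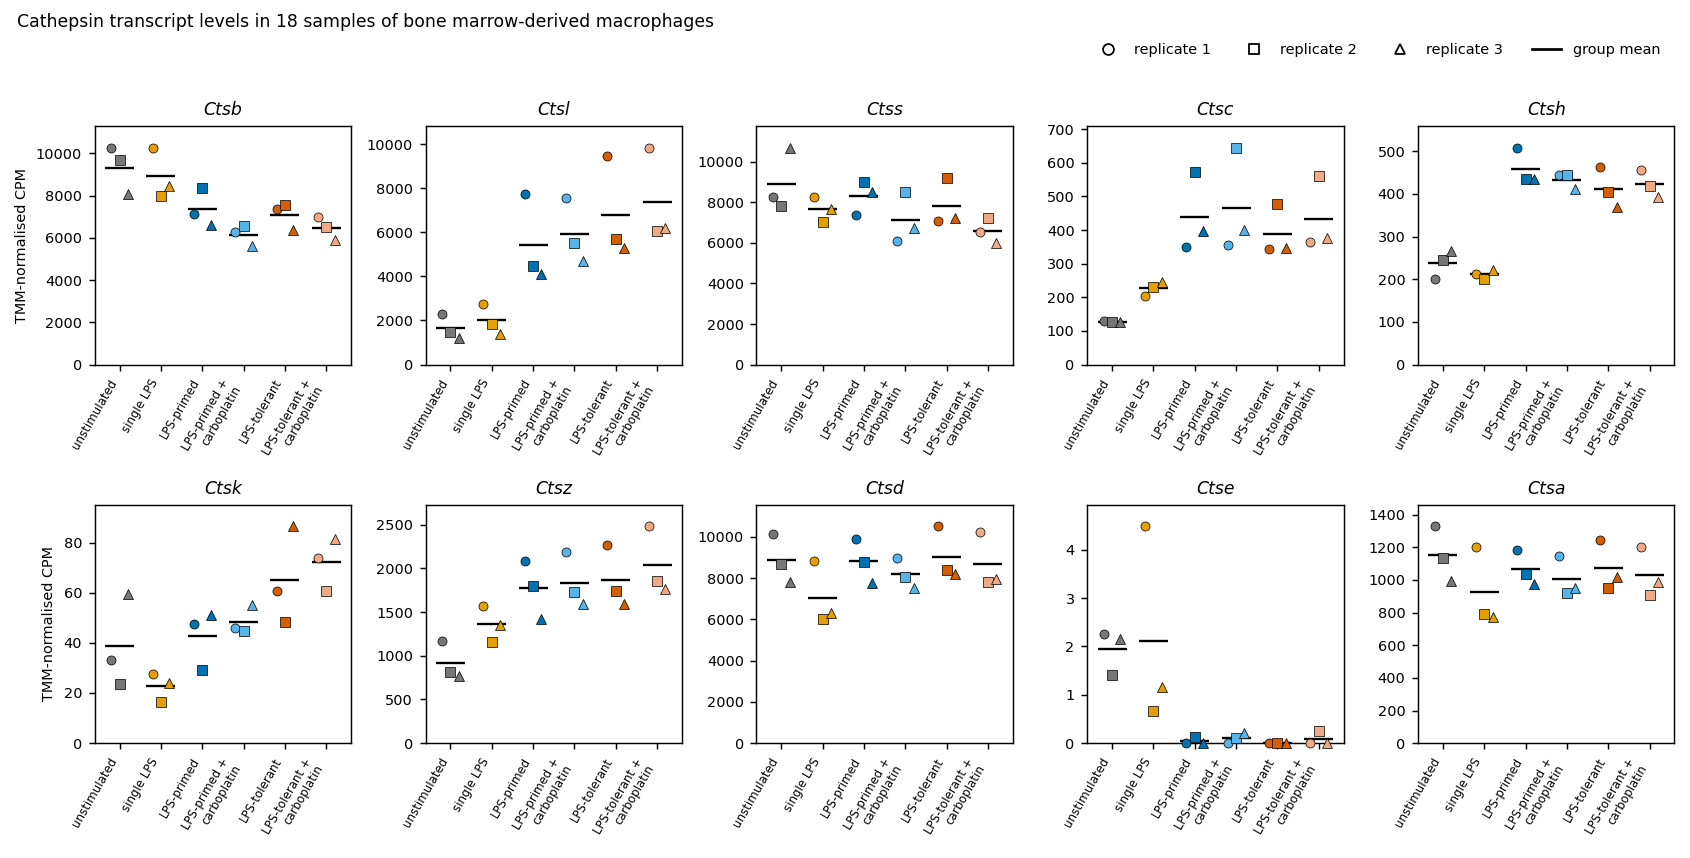
Levels of the 10 cathepsin transcripts in TMM-normalised CPM (vertical axes from 0, a scale of its own for each gene) in the 6 groups. Circles, squares and triangles are replicates 1, 2 and 3 and bars are group means. Ctsl, Ctsc and Ctsh were higher in all 3 LPS-primed samples than in any unstimulated sample, and Ctse was near 0 in the 4 groups that received the priming dose.

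In LPS-primed BMDMs Ctsc, Ctsl, Ctsh and Ctsz rose and Ctse fell, while Ctsa, Ctsb, Ctsd, Ctsk and Ctss did not pass the test. These are 5 of 10 genes, beside 25.2% of all genes tested (12.1% called as higher and 13.1% as lower). Ctse, counted among these 5, could be called only as lower, as given below. The median log2FC of the 10 genes was 0.06, beside -0.02 over all genes tested. With library size alone, 932 genes were called as higher and 2598 as lower, in place of 1370 and 1477, and Ctsb joined the called cathepsins as lower, at -0.58 (edgeR adjusted p = 0.0045).

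Ctsc encodes dipeptidyl peptidase I, which activates the serine proteases of immune cell granules. Its level was 129.1, 127.8 and 127.4 CPM in the unstimulated replicates 1, 2 and 3. In LPS-primed BMDMs the level of Ctsc was 349.4, 572.5 and 396.2 CPM. The unstimulated samples lay close together, all LPS-primed samples stood above them, and replicate 2 was the highest of the primed ones. The log2FC of Ctsc was 1.78 (SE 0.24, edgeR quasi-likelihood test, adjusted p = 2.9e-05).

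Ctsl encodes a strong endopeptidase that processes the invariant chain and degrades engulfed protein. The unstimulated samples had 2309, 1493 and 1224.5 CPM of Ctsl. The LPS-primed samples had 7756, 4464 and 4087 CPM of Ctsl. Replicate 1 was the highest in both groups, and the groups did not overlap. Ctsl had a log2FC of 1.70 (SE 0.34, adjusted p = 0.0012 by edgeR).

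Ctsh encodes an aminopeptidase. Its levels in unstimulated replicates 1 to 3 were 200.1, 246.1 and 265.3 CPM. After priming, Ctsh stood at 508.5, 434.9 and 435.1 CPM. All primed samples were above all unstimulated ones, although the unstimulated sample with the lowest level shares its number with the highest primed one. The log2FC was 0.95 (SE 0.13, edgeR adjusted p = 3.7e-05), and this gene had the smallest standard error among the called cathepsins.

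Ctsz encodes a carboxypeptidase, also called cathepsin X. It was measured at 1171, 810.6 and 773.1 CPM without stimulation. LPS-primed BMDMs had 2083, 1803 and 1423 CPM of Ctsz. Replicate 1 was again highest in both groups and no sample overlapped. The change was 0.95 (SE 0.21) as log2FC, with an adjusted p of 0.0027 in edgeR's test. Each of the calls for Ctsc, Ctsl, Ctsh and Ctsz held in 6 of 6 fits that left out a sample and in 8 of 8 alternative fits.

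Ctse encodes an endosomal aspartic protease of immune and gastric cells. It was counted 22, 16 and 22 times in the unstimulated samples. LPS-primed samples held 0, 1 and 0 counts. All samples given the priming dose were at the floor, so Ctse passed the expression filter only through the others. It could therefore be called only as lower here. Set against a floor of 3 counts per library, Ctse was at least 5.76-fold lower in LPS-primed BMDMs (edgeR adjusted p = 0.0035). The counts are few, so the size of the change is known only as this bound, which lay between 5.28 and 6.54 without 1 sample of either group. Ighm, a B cell marker, moved in the same direction, with 267 to 1697 counts in unstimulated samples, 58 to 305 after a single dose of LPS and at most 10 in any sample of the other groups. The summed level of the 7 B cell markers was 28.7 to 168 CPM in unstimulated samples and 0.367 to 1.36 CPM in LPS-primed samples, while Ms4a1, Pax5 and Ebf1 had at most 2 counts in any sample. The part of B cell transcripts in the Ctse result was not tested. In bulk RNA, fewer cells of a type and less RNA per cell cannot be told apart.

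The abundant Ctsb, Ctsd and Ctss did not pass. Ctsb stood at 10237, 9666 and 8081 CPM in unstimulated samples. In LPS-primed samples Ctsb was at 7129, 8343 and 6606 CPM. Each primed sample was below the unstimulated sample of its number, but the groups overlapped. The log2FC of Ctsb was -0.34 (SE 0.14), which did not pass (edgeR adjusted p = 0.0965) and passed with the replicate block (adjusted p = 0.0117). With the block the count of called cathepsins became 6, beside 38.6% of all genes. Under the limits the study set for LPS, which ask for an absolute log2FC above 2, Ctse alone was called here (beside 7.47% of all genes) and in LPS-tolerant against singly stimulated BMDMs (8.04%), and no cathepsin after the single dose (12%) or in the difference between both responses (8.01%). For Ctsd, the main lysosomal aspartic protease, the unstimulated range was 7820.5 to 10141 CPM and the primed range 7779 to 9887.5 CPM. The interval of its log2FC was -0.38 to 0.36 (95%). Ctss ranged from 7797 to 10696 CPM without LPS and from 7359 to 9018 CPM after priming, with an interval of -0.45 to 0.24 for its log2FC.

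Ctsa, the carboxypeptidase that protects β-galactosidase and neuraminidase in lysosomes, ranged from 991.5 to 1329 CPM in unstimulated and from 975.6 to 1186 CPM in LPS-primed samples. Its log2FC had an interval of -0.50 to 0.28. Ctsk encodes the collagen-degrading cathepsin of osteoclasts. Its level was 33.3, 23.7 and 59.7 CPM unstimulated and 47.6, 29.0 and 51.0 CPM after priming. The groups overlapped, and the interval of the log2FC was -0.51 to 0.78. Its estimate of 0.13 turned to -0.11 with library size alone.

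The summed level of the 10 macrophage markers was higher in the same groups as Ctsl and Ctsh. Their sum was 16670 to 18390 CPM in unstimulated, 15607 to 19453 CPM in singly stimulated, 29713 to 30119 CPM in LPS-primed and 27109 to 32877 CPM in LPS-tolerant samples. Adgre1, Cd14, Fcgr1, Itgam and Lyz2 were called as higher and Cd68 as lower with priming. The neutrophil gene S100a8 rose as well, and the summed level of the 10 neutrophil markers was 0.879 to 1.67 CPM before and 9.06 to 47.1 CPM after priming. S100a8 was the only 1 of these 10 with enough counts to be tested. Ly6g, Mpo, Retnlg and Cxcr2 had 0 counts in every sample, and S100a9 had at most 8. The sum of the 7 stromal markers went from at most 0.879 CPM to between 4.32 and 8.77 CPM. The part of these markers in the cathepsin results was not tested.

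**Figure D2:**
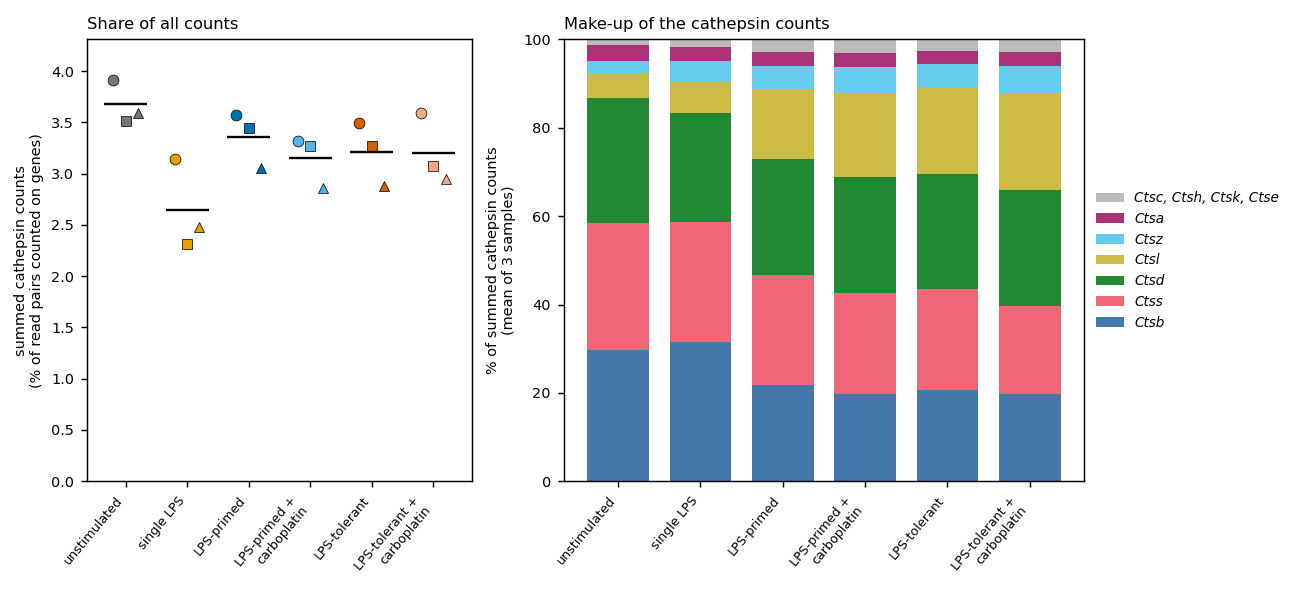
Left, summed counts of the 10 cathepsins as a percentage of read pairs counted on genes, for each sample (circles, squares and triangles are replicates 1, 2 and 3, bars are group means). Right, mean make-up of these counts in each group in percent, where Ctsl grew from 5.30% in unstimulated to 15.9% in LPS-primed and 19.4% in LPS-tolerant BMDMs.

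The make-up of the cathepsin transcripts differed between groups. The summed share of counted read pairs was 3.36% ± 0.27 in LPS-primed, 3.21% ± 0.31 in LPS-tolerant and 2.64% ± 0.44 in singly stimulated BMDMs (SD, n = 3). The singly stimulated samples lay between 2.31% and 3.14%, below every unstimulated sample, which lay between 3.51% and 3.92%. On the TMM scale these groups overlapped, with 33359 CPM in singly stimulated replicate 1 and 29985 to 33810 CPM in unstimulated samples. The order of unstimulated and LPS-primed BMDMs turned on that scale, with mean sums of 31279 and 33689 CPM. No direction is therefore read from the sum. Ctsl took 5.30% ± 1.4 of cathepsin counts in unstimulated, 15.9% ± 4.71 in LPS-primed and 19.4% ± 4.31 in LPS-tolerant BMDMs. The part of Ctsb was 29.8% ± 2.70 before and 21.9% ± 2.27 after priming. Per coding kilobase, Ctsl reached 5425 CPM in LPS-primed BMDMs, beside 7237 CPM for Ctsb, and 6791 CPM in LPS-tolerant BMDMs, beside 6969 CPM for Ctsb. Per kilobase of the whole transcript these values were 920.1 and 1541 CPM in LPS-primed and 1152 and 1484 CPM in LPS-tolerant BMDMs.

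After a single dose of LPS, Ctsc and Ctsz rose and Ctsk fell, which are 3 of 10 genes beside 51.2% of all genes tested. Of all genes, 24.3% were called as higher and 26.9% as lower. The median log2FC of the 10 genes was -0.12, beside -0.09 over all genes. With the replicate block, 6 of the 10 genes were called (63.2% of all genes), with Ctsl also higher and Ctsa and Ctsd also lower. With library size alone, Ctsa, Ctsb, Ctsd, Ctsh, Ctsk and Ctss were called, all as lower, while 1847 genes were called as higher and 4636 as lower in place of 2749 and 3040.

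Ctsc stood at 203.9, 232.1 and 245.2 CPM after the single dose. Every sample lay above the unstimulated and below the LPS-primed samples, so the 3 groups did not overlap. The log2FC of Ctsc against unstimulated BMDMs was 0.83 (SE 0.23, edgeR adjusted p = 0.0074), and it was 0.49 with library size alone (adjusted p = 0.089). Ctsz was at 1565, 1163 and 1357 CPM, and its lowest sample here was just under the highest unstimulated one. Its log2FC was 0.57 (SE 0.21, edgeR adjusted p = 0.031) and it held in only 2 of 6 fits that left out a sample, being lost without unstimulated replicate 2 or 3 or singly stimulated replicate 1 or 3. With library size alone the log2FC of Ctsz was 0.24 (adjusted p = 0.312).

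Ctsk fell to 27.7, 16.3 and 23.9 CPM, overlapping the unstimulated samples. The log2FC was -0.79 (SE 0.31, edgeR adjusted p = 0.044), with lower values in 3 of 3 same-numbered pairs. The call was lost without unstimulated replicate 3, the sample with the highest Ctsk of its group, and without singly stimulated replicate 2 or 3, with values from -1.02 to -0.31, and it held in 5 of 8 alternative fits, not with RLE scaling, limma-voom or a fit of these groups alone. Ctsl was at 2767, 1845 and 1388.5 CPM, close to the unstimulated samples of the same number. Its log2FC of 0.26 (SE 0.33) did not pass (edgeR adjusted p = 0.541), passed with the block (adjusted p = 0.030), and was -0.08 with library size alone.

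Ctsd and Ctsa had lower means after the single dose. Ctsd was at 8828, 6010 and 6326 CPM, where replicate 1 stood within the unstimulated range and the others under it. Its log2FC was -0.33 (SE 0.18), with an edgeR adjusted p of 0.123 that became 0.0031 under the block. Ctsa was at 1205, 793.1 and 774.5 CPM and its estimate was -0.32 (SE 0.18), with an adjusted p of 0.161, or 0.0067 under the block. Without singly stimulated replicate 1 both were called, at a log2FC of -0.52 for Ctsd and -0.55 for Ctsa. Ctsh was not called, with an interval of -0.44 to 0.11, and neither were Ctsb (-0.37 to 0.24) and Ctss (-0.56 to 0.13). These 3 passed as lower with library size alone, Ctsh at -0.51 (adjusted p = 0.0026), Ctsb at -0.40 (adjusted p = 0.021) and Ctss at -0.56 (adjusted p = 0.011). Ctse was still present at 35, 9 and 11 counts, and its highest sample was replicate 1. These samples overlapped the unstimulated ones, and the log2FC of Ctse was 0.07 (SE 0.70, interval -1.43 to 1.57).

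LPS-tolerant and singly stimulated BMDMs both ended with 10 ng/ml LPS, and differed in the priming dose. In tolerant cells Ctsl, Ctsk, Ctsh and Ctsc were higher and Ctse was lower, which are 5 of 10 genes beside 34.5% of all genes tested (16.2% higher, 18.3% lower). Ctse, at the floor in LPS-tolerant samples, could again be called only as lower. The median log2FC was 0.41 for the 10 genes and 0.00 for all genes. With the replicate block 8 of 10 were called, with Ctsd and Ctsz also higher and Ctsb also lower, beside 47.6% of all genes.

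Ctsl in LPS-tolerant BMDMs was at 9455, 5682 and 5277 CPM, each sample above all singly stimulated ones. The log2FC of Ctsl was 1.77 (SE 0.34, edgeR adjusted p = 0.00061). Ctsh was at 462.4, 404.7 and 368.7 CPM, with no overlap and a log2FC of 0.96 (SE 0.13, adjusted p = 2.7e-05). Ctsc, at 344.2, 476.3 and 345.3 CPM, did not overlap either, and its log2FC of 0.78 (SE 0.23, adjusted p = 0.016) was lost without LPS-tolerant replicate 2 or singly stimulated replicate 1. The level of Ctsk was 60.8, 48.2 and 86.5 CPM, all above the singly stimulated samples. Its log2FC was 1.53 (SE 0.31, edgeR adjusted p = 0.0011) and it held in 6 of 6 fits that left out a sample. Ctse had 0 counts in all 3 LPS-tolerant samples and was at least 6.21-fold lower against a floor of 3 counts per library (edgeR adjusted p = 0.0011). Without singly stimulated replicate 1 this bound was 2.70-fold.

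Ctsz, at 2269.6, 1736 and 1596.5 CPM in LPS-tolerant BMDMs, had a log2FC of 0.46 (SE 0.21) that did not pass (edgeR adjusted p = 0.102, and 0.0013 with the block). Ctsd was at 10515, 8371 and 8202 CPM, for an estimate of 0.36 (SE 0.18) whose adjusted p was 0.129, or 0.0028 under the block. Without singly stimulated replicate 1, Ctsd was called at 0.55. Ctsb was at 7366, 7536 and 6361 CPM, all below the singly stimulated samples, and its log2FC of -0.33 (SE 0.14) had an adjusted p of 0.088, or 0.011 with the block. Ctss and Ctsa did not pass in either fit, with intervals of -0.32 to 0.38 and -0.18 to 0.60.

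**Figure D3:**
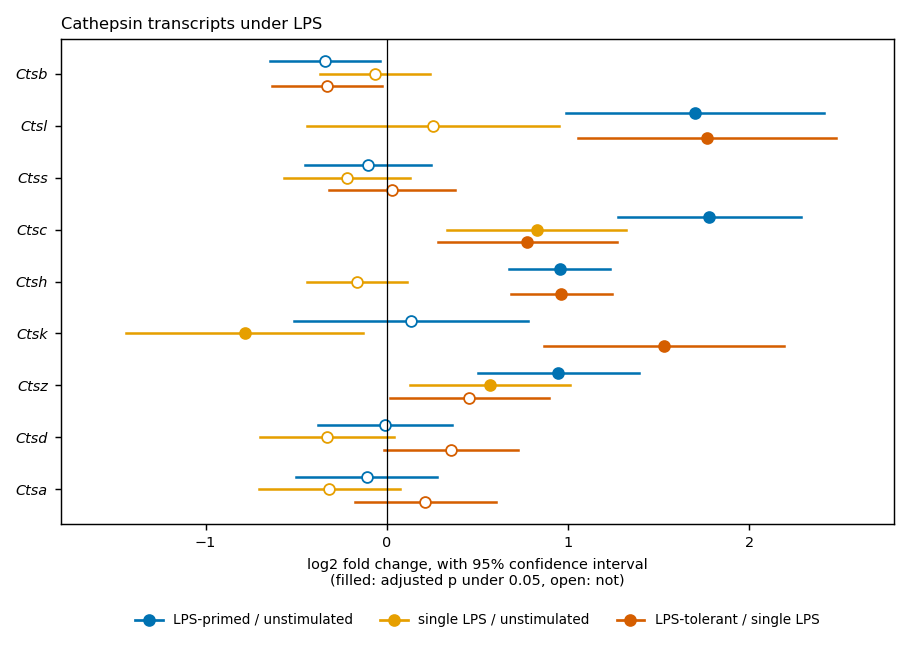
Log2 fold changes of 9 cathepsins (points) with 95% confidence intervals (lines) for LPS-primed against unstimulated, singly stimulated against unstimulated and LPS-tolerant against singly stimulated BMDMs, n = 3 in each group. Filled points passed the edgeR test, and Ctse is left out because LPS-primed and LPS-tolerant BMDMs were at the floor for it. Ctsc, Ctsl, Ctsh and Ctsz are filled for priming, and Ctsk is filled below 0 after the single dose and above 0 in LPS-tolerant BMDMs. Under library size alone the open points of Ctsk for priming and of Ctsl for the single dose fall below 0.

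No cathepsin was called after the second dose of LPS. In LPS-tolerant against LPS-primed BMDMs, 0 of the 10 genes passed edgeR's test, beside 6.31% of all genes, and no member had an unadjusted p under 0.05. All genes were split into 407 higher and 306 lower, or 296 and 476 with library size alone. With the replicate block Ctsk and Ctsl passed as higher, 2 of 10 genes beside 18% of all genes. The estimate for Ctsk was 0.61 (SE 0.31, adjusted p = 0.264, or 0.022 under the block), and each LPS-tolerant sample was above the primed sample of its number. For Ctsl the estimate was 0.32 (SE 0.33), with an adjusted p of 0.638, or 0.023 under the block. Ctsc (-0.18, SE 0.23), Ctsh (-0.16, SE 0.13), Ctsb (-0.05, SE 0.14), Ctss (-0.08, SE 0.16), Ctsd (0.03, SE 0.17), Ctsz (0.08, SE 0.21) and Ctsa (0.01, SE 0.18) had intervals that include 0. The estimates of Ctsa, Ctsd and Ctsz turned below 0 with library size alone.

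Tested was the difference between both responses, that of LPS-primed cells to the second dose and that of unstimulated cells to a single dose. By the methods of the study the second dose came in fresh medium for 3 h. In the second response LPS, fresh medium and added time cannot be told apart. Ctsc and Ctsk passed, 2 of 10 genes beside 23.8% of all genes tested (10.5% higher, 13.3% lower). With the block 4 passed, with Ctsd and Ctsz added, beside 36.2% of all genes. The split of all genes was 1190 higher and 1501 lower, or 1862 and 1078 with library size alone, which moved the median log2FC from 0.06 to 0.30.

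The response of Ctsc was 0.83 in unstimulated and -0.18 in LPS-primed cells on the log2 scale. The difference was -1.003 (SE 0.33, edgeR adjusted p = 0.035), and it was called in only 4 of 12 fits that left out a sample, being lost without any unstimulated replicate, LPS-primed replicate 2, LPS-tolerant replicate 1 or 3, or singly stimulated replicate 2 or 3, and with library size alone. Ctsk went from -0.79 in unstimulated to 0.61 in LPS-primed cells. This difference was 1.4 (SE 0.44, adjusted p = 0.027) and was called in 8 of 12 such fits, being lost without unstimulated replicate 3, LPS-primed replicate 2, LPS-tolerant replicate 3 or singly stimulated replicate 2, and in a fit of these 4 groups alone. For Ctsd the difference was 0.37 (SE 0.25), with an adjusted p of 0.322, or 0.029 under the block. For Ctsz it was -0.49 (SE 0.29), where the adjusted p of 0.260 became 0.0082 under the block. The intervals for Ctsl (-0.91 to 1.05), Ctsh (-0.38 to 0.40), Ctsb (-0.42 to 0.44), Ctss (-0.36 to 0.63) and Ctsa (-0.23 to 0.87) include 0.

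**Figure D4:**
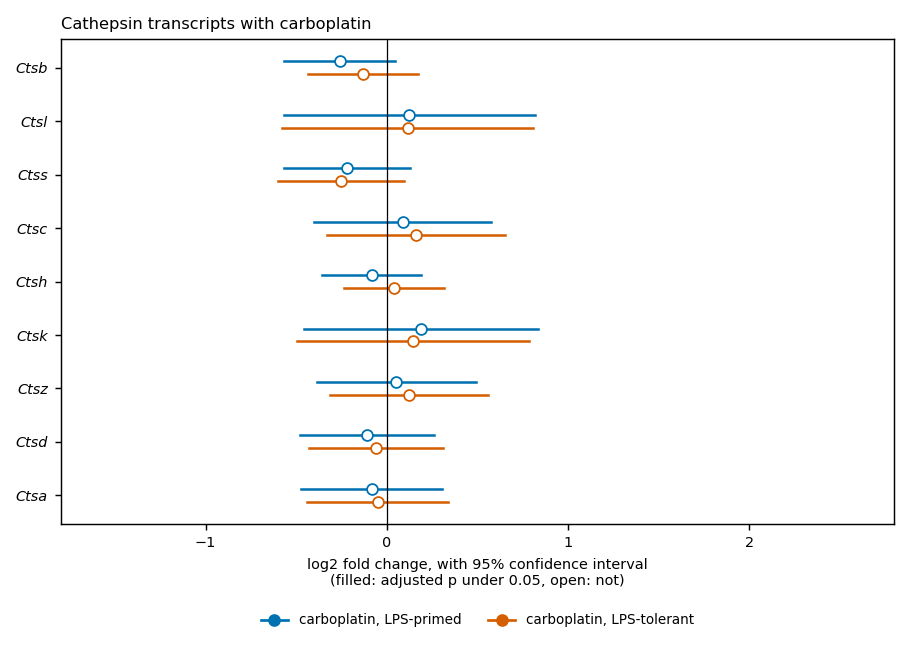
Log2 fold changes of 9 cathepsins with carboplatin (points) and 95% confidence intervals (lines) in LPS-primed and LPS-tolerant BMDMs, n = 3 in each group, on the same scale as the plot of LPS changes. Every point is open, as no cathepsin passed the edgeR test, and every interval includes 0. Ctse is left out because its groups were at the floor.

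Carboplatin had no called effect on any cathepsin. In LPS-primed BMDMs 0 of 10 genes passed edgeR's test, beside 0.372% of all genes, and in LPS-tolerant BMDMs 0 of 10, beside 0.425%. No member had an unadjusted p under 0.05 in either comparison, and DESeq2, limma-voom and the replicate block gave 0 as well, the last beside 1.77% of all genes in each comparison. Ctsb in carboplatin-treated LPS-primed BMDMs was at 6268, 6541 and 5624 CPM, each below every untreated LPS-primed sample. The estimate for Ctsb was -0.26 with an interval of -0.57 to 0.04 (edgeR adjusted p = 0.820), so groups that did not overlap still missed the test. Ctss with carboplatin was at 6105, 8509.5 and 6720 CPM in LPS-primed and at 6515, 7214 and 5976 CPM in LPS-tolerant BMDMs, lower than the untreated sample of the same number in all 6 pairs. Ctsa, Ctsb and Ctsd were also lower in all 6 pairs on the TMM scale, and Ctsc was higher in all 6. As a share of counted read pairs, Ctsa and Ctsd were instead higher with the drug in LPS-tolerant replicates 1 and 3. For Ctsd these shares were 0.963% with and 0.945% without it in replicate 1, and 0.790% and 0.774% in replicate 3. The log2FC of Ctss was -0.22 (interval -0.57 to 0.13) and -0.25 (interval -0.60 to 0.09).

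The cathepsins that rose with priming stayed above the unstimulated range in every sample given the drug. Ctsl was at 7573, 5508 and 4680.5 CPM in LPS-primed and at 9838, 6076.5 and 6207 CPM in LPS-tolerant BMDMs given carboplatin. Its log2FC of 0.12 in both had intervals of -0.57 to 0.82 and -0.58 to 0.81. Ctsc had intervals of -0.40 to 0.58 and -0.33 to 0.65, and Ctsz of -0.39 to 0.49 and -0.32 to 0.56. Ctsh was bounded most closely, to -0.36 to 0.19 in LPS-primed and -0.24 to 0.31 in LPS-tolerant BMDMs. Ctse had 0, 1 and 2 counts and 0, 2 and 0 counts in the carboplatin groups, which gives no fold. Averaged over LPS-primed and LPS-tolerant BMDMs, 0 of 10 passed, beside 1.99% of all genes (6.24% with the block, again with 0 of the 10), with estimates of -0.24 (interval -0.48 to 0.01) for Ctss and -0.20 (interval -0.41 to 0.02) for Ctsb. The effect of carboplatin in LPS-tolerant minus that in LPS-primed BMDMs gave 0 of 10 cathepsins and 0.0% of all genes by edgeR, where 131 of all genes and none of the 10 had an unadjusted p under 0.05.

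The order of the groups differed from gene to gene, and most neighbours in it overlapped. For Ctsl, Ctsh, Ctsc and Ctse the 4 groups that received the priming dose stood apart from the others without overlap between the nearest means. Within those 4 groups, neighbours in the order of means overlapped for each of these genes. For Ctsa, Ctsb, Ctsd, Ctsk, Ctss and Ctsz every pair of neighbours overlapped.

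Several cathepsins had the same replicate highest in most groups. Replicate 1 had the highest level of Ctsa, Ctsd, Ctsl and Ctsz in 6 of 6 groups, and replicate 3 the highest Ctsk in 5 of 6. Of the variation of log2 CPM over the 18 samples, replicate numbers took 64.7% for Ctsa and 56.3% for Ctsd, while groups took 23.5% and 35.6%. For Ctsh groups took 94.4% and replicate numbers 0.364%, and for Ctsl 84.8% and 14.6%. The labels do not say what samples of one number share.

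Among the other cathepsin genes, 2 of 13 were expressed enough to be tested. Ctsf, a further papain-like cathepsin, fell from 22.4 ± 2.76 to 6.44 ± 0.900 CPM with priming (SD, n = 3), a log2FC of -1.8 (SE 0.24, edgeR adjusted p = 2.9e-05), the opposite direction to Ctsc and Ctsl. Ctso fell after a single dose of LPS from 33.5 ± 4.81 to 23.8 ± 2.18 CPM (log2FC -0.49, SE 0.18, adjusted p = 0.030). Ctsw had at most 1 count and Ctsg at most 6 in any sample, and the 9 mouse placental genes of the cathepsin L cluster, such as Ctsj and Ctsq, had 0 counts in all 18 samples.

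Inhibitors of the cysteine cathepsins were called in both directions. The list of 7 inhibitor genes tested holds cystatins and stefins and also Ctla2a and Ctla2b, which are not cystatins. With priming 4 rose (Csta2, Cstb, Ctla2b and Stfa3) and 1 fell, beside 25.2% of all genes called. Csta2 and Stfa3 were at the floor in unstimulated samples, so they could be called only as higher here. After the single dose 3 rose (Cst7, Ctla2a and Ctla2b), beside 51.2% of all genes. The block gave 4 higher and 1 lower there, beside 63.2%. With library size alone 2 rose and 1 fell with priming, and 3 rose and 1 fell after the single dose. The medians were 0.98 and 1.78, beside -0.02 and -0.09 over all genes. Cst3, which encodes the secreted inhibitor cystatin C, fell from 1669 ± 135 to 878 ± 104 CPM with priming (log2FC -0.93, SE 0.17, edgeR adjusted p = 0.00063). Csta2 and Stfa3 belong to a cluster of near-identical stefin A genes, between which reads may be split. Csta2 had 838, 124 and 255 counts in LPS-primed samples and was at least 157-fold higher than unstimulated, against 3 counts per library. Stfa3, with 241, 7 and 64 counts, was at least 40.1-fold higher, and both were highest in replicate 1. Without LPS-primed replicate 1, an alternative chosen after seeing the data, the bounds were 70.9-fold and 12.7-fold. After the single dose Ctla2a rose from 21.2 ± 8.48 to 178 ± 17.6 CPM and Ctla2b, a close relative that may share its reads, from 59.7 ± 17 to 169 ± 12.3 CPM. Both are cathepsin-propeptide-like inhibitors.

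Cathepsins need other proteases and partner proteins to be processed and stabilised. Of 7 genes of zymogen processing and cofactors tested, 0 passed with priming and 3 with the block, beside 25.2% and 38.6% of all genes, and 3 passed as lower with library size alone. The single dose gave 1 higher and 2 lower, beside 51.2% of all genes, or 1 and 5 both with the block and with library size alone. Neu1, the neuraminidase that forms a complex with cathepsin A, fell from 97 ± 21.2 to 53.5 ± 14.4 CPM after the single dose (log2FC -0.86, SE 0.20, edgeR adjusted p = 0.0019). Cd74, the invariant chain that cathepsins S and L degrade, rose from 45.6 ± 14.0 to 92.2 ± 31.3 CPM (log2FC 1.02, SE 0.28, adjusted p = 0.0058), while Tpp1, a lysosomal tripeptidyl peptidase, fell (log2FC -0.45, SE 0.14, adjusted p = 0.014).

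In the mannose-6-phosphate route, 1 of 12 genes rose and 3 fell with priming, beside 25.2% of all genes called. With the block 2 rose and 4 fell, beside 38.6%. After the single dose 3 rose and 2 fell, beside 51.2% of all genes. The block gave 3 and 5 there, beside 63.2%, and library size alone 2 and 6, beside 57.3%. M6pr, the cation-dependent receptor, rose in both, from 224 ± 14.6 CPM to 427 ± 17.2 CPM with priming and to 354 ± 23.9 CPM after the single dose. Igf2r, the cation-independent receptor, rose after the single dose from 260 ± 18.1 to 566 ± 127 CPM (log2FC 1.12, SE 0.20, edgeR adjusted p = 0.00020). Gga2, an adaptor that sorts these receptors, fell to 19.8 ± 4.14 from 48.0 ± 4.91 CPM.

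**Figure D5:**
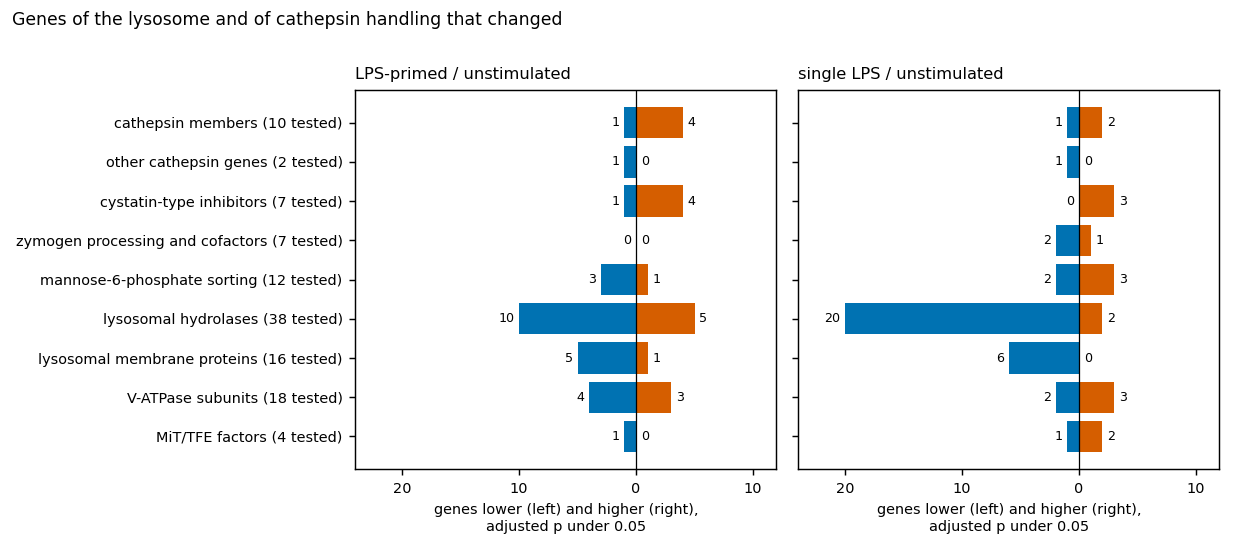
Numbers of genes called as lower (left bars) and higher (right bars) by edgeR at an adjusted p under 0.05 in lists of lysosomal and cathepsin-handling genes, for LPS-primed and for singly stimulated against unstimulated BMDMs. Of 38 lysosomal hydrolases, 20 were lower and 2 higher after the single dose, and 10 were lower and 5 higher with priming. Of all genes tested, 26.9% were lower and 24.3% higher after the single dose, and 13.1% and 12.1% with priming.

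Other hydrolases of the lysosome were called in both directions. With priming 5 of 38 rose and 10 fell, beside 12.1% of all genes higher and 13.1% lower, with a median log2FC of -0.11. Of the same genes 2 rose and 20 fell after the single dose, beside 24.3% and 26.9% of all genes, with a median of -0.42. The medians over all genes were -0.02 and -0.09. The counts for priming were 3 higher and 14 lower with library size alone, and 8 and 13 with the block. For the single dose they were 2 and 15 with RLE scaling, 2 and 9 of 37 in a fit of these groups alone, 1 and 29 with library size alone and 3 and 28 with the block. Lipa, the lysosomal acid lipase, fell from 959 ± 126 to 188 ± 48.3 CPM with priming (log2FC -2.35, SE 0.31, edgeR adjusted p = 2.7e-05). Acp2, a lysosomal acid phosphatase, rose from 75.2 ± 10.8 to 221 ± 37.4 CPM. After the single dose Acp5, the tartrate-resistant phosphatase, rose from 8.0 ± 4.95 to 97.3 ± 23.4 CPM, and Sgsh, a sulfatase of heparan sulfate, fell from 53.4 ± 15 to 6.64 ± 1.86 CPM. In LPS-tolerant against singly stimulated BMDMs 10 rose and 7 fell, beside 16.2% of all genes higher and 18.3% lower. With the block 17 rose and 8 fell, beside 47.6% of all genes called.

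Lysosomal membrane proteins had 1 gene higher and 5 lower of 16 with priming, and 0 higher and 6 lower after the single dose, beside the same shares of all genes. Scaling by library size alone gave 1 higher and 10 lower with priming, and 0 higher and 13 lower after the single dose. The block gave 2 higher and 7 lower with priming, and 1 higher and 8 lower after the single dose. Gpnmb fell from 10324 ± 961 to 3834 ± 591 CPM and Slc11a1, the phagosomal metal transporter, rose from 244 ± 42.5 to 563 ± 66.2 CPM with priming. Of 18 subunits of the V-ATPase, the proton pump that acidifies lysosomes, 3 rose and 4 fell with priming, beside 25.2% of all genes. With the block 4 rose and 7 fell, beside 38.6%. After the single dose 3 rose and 2 fell, beside 51.2%, or 3 and 4 with the block, beside 63.2%. With library size alone these counts were 2 higher and 7 lower, and 1 higher and 7 lower. Atp6v0d2 fell from 65.2 ± 17 to 6.82 ± 3.03 CPM with priming, and Atp6v1e1 rose after the single dose from 156 ± 15.2 to 307 ± 8.67 CPM. Of the 4 MiT/TFE factors, which drive lysosomal genes through E-box-like sites, Tfeb fell from 66.2 ± 3.61 to 22.7 ± 3.27 CPM with priming and to 3.77 ± 0.516 CPM after the single dose. Tfec rose from 33.7 ± 2.25 to 327 ± 84.7 CPM after the single dose (log2FC 3.28, SE 0.23, edgeR adjusted p = 6.3e-09).

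As a description over the 18 samples, which share libraries, groups and replicate numbers, the gene whose log2 CPM was most like Ctsl was Plbd1 (Pearson's r = 0.983), followed by Gde1 (0.975) and Rmc1 (0.971). Ctsh was most like Sirpb1c (0.980), Gm5150 (0.973) and Fcor (0.966). Ctsc was most like Acp2 (0.954), and Ctsz like Spaca6 (0.966). Ctsd was most like Gpx4 (0.957) and Ctsa like Adam15 (0.950), with Ctsd next (0.937). Ctsb was most like Cd68 (0.956), Ctss like Lamp1 (0.915), Ctsk like Nabp1 (0.924) and Ctse like Pgm5 (0.956). Because Ctse was at the floor in every sample given the priming dose, its r mostly reflects presence against absence of counts. Among the 10 genes themselves, Ctsl and Ctsz had r = 0.921 over the 18 samples, and Ctsb and Ctsh had r = -0.75.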

How the data were processed

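The authors prepared stranded mRNA libraries, sequenced 150-base paired ends, used HISAT2 for alignment to GRCm39 and HTSeq-count for counting, and deposited raw counts per gene for 18 samples. Versions, annotation and strand option are not given in the sources used here. Rows that name no gene (41.5% to 46.9% of read pairs per sample) were left out. All 18 samples entered a single edgeR 4.0.16 fit (R 4.3.3, TMM, filterByExpr with a count of 10 and a total of 15 as its minima) with a mean per group, tested on simulated data. The log2FC uses a prior count of 0.125, and its SE follows from the F statistic (size of the log2FC over the root of F). A gene with no sample of a group above 3 counts was taken as at the floor there.

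Deviations from group means correlated at 0.349 on average between samples of the same replicate number in their titles, and at -0.170 between others, and every same-numbered pair of the groups compared correlated above 0.1. The labels do not say what a number shares. DESeq2 1.42.0, limma-voom (limma 3.58.1), other scalings, filters and limits, the replicate block and leaving out each sample were alternatives.

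The cathepsins, the gene lists and the rule for naming genes (all 10 cathepsins, up to 3 genes of each list with the smallest adjusted p in each comparison with unstimulated BMDMs, and the genes most alike) were chosen with earlier results of these data known. Marker lists had 7 to 10 genes.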

Additional observations from a re-analysis of the deposited data

Results flagged for a closer look

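The response to a dose of LPS differed between unstimulated and LPS-primed BMDMs for 2 cathepsins, by a test of the difference itself. The second dose came in fresh medium, and the parts of LPS and medium cannot be told apart. For Ctsc the second response minus the first was -1.003 on the log2 scale (SE 0.33, edgeR adjusted p = 0.035), with the difference negative in 3 of 3 sets of same-numbered samples. For Ctsk it was 1.3988 (SE 0.44, edgeR adjusted p = 0.027), positive in 3 of 3 sets. These are 2 of 10 genes beside 23.8% of all genes tested. Ctsc was called in 4 of 12 fits that left out a sample and was lost with library size alone, and Ctsk was called in 8 of 12 and was lost in a fit of only the groups compared.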

How the results depend on the processing

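Fits with RLE or library size scaling, other filters, DESeq2, limma-voom, only the groups compared or the replicate block, other limits, and fits without 1 sample were compared. Of 540 values outside the fits without a sample, 495 kept direction and side of the threshold, 20 turned direction, 18 passed newly and 7 were lost. Of 474 values without a sample, the numbers were 388, 62, 3 and 21. No value that turned direction had been called, and the causes were not tested. Ctse had at most 35 counts in any sample. Same-numbered samples pair by correlation, and beyond the calls given with the results the block changed no call of a cathepsin.

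With an absolute log2FC above 1, the count of called cathepsins was 3 for LPS-primed against unstimulated (from 5, beside 15.3% of all genes), 0 for singly stimulated against unstimulated (from 3, 31.4%) and 3 for LPS-tolerant against singly stimulated (from 5, 20.1%). Under the limits of the study it was 1, 0 and 1, and 0 for the difference between both responses (from 2). At an adjusted p under 0.25 it was 6 for LPS-primed against unstimulated (44.7% of all genes), 5 after the single dose (70.3%) and 8 for LPS-tolerant against singly stimulated (55.2%). The replicate block gave 6 after the single dose, 8 for LPS-tolerant against singly stimulated, 2 for LPS-tolerant against LPS-primed (from 0) and 4 for the difference between both responses. Library size alone gave 6 for LPS-primed against unstimulated (31.2% of all genes), 6 after the single dose (57.3%) and 1 for the difference between both responses, where a fit of only the groups compared also gave 1. Without a sample the count ranged from 1 to 4 after the single dose and from 0 to 2 for the difference between both responses.

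Values that turned direction are on the log2 scale. For LPS-primed against unstimulated, Ctsd was 0.0019 with RLE scaling and with DESeq2, 0.0006 without a filter and 0.0087 with only the groups compared, and Ctsk was -0.11 with library size alone. After the single dose, library size alone gave -0.25 for Ctse and -0.075 for Ctsl, limma-voom -0.46 for Ctse and the block -0.13 for Ctse. For LPS-tolerant against LPS-primed, library size alone gave -0.097 for Ctsa, -0.069 for Ctsd and -0.026 for Ctsz, and limma-voom gave -0.0 for Ctsa. For carboplatin in LPS-tolerant BMDMs, library size alone gave 0.012 for Ctsa and 0.0039 for Ctsd. In the difference between both responses, RLE scaling and DESeq2 gave -0.011 for Ctsb, and for Ctsh RLE scaling gave -0.0154, DESeq2 -0.0153 and limma-voom -0.0015.

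Without a sample, values for LPS-primed against unstimulated ranged from -0.19 to 0.018 for Ctsa, -0.097 to 0.11 for Ctsd, -0.11 to 0.60 for Ctsk and -0.18 to 0.064 for Ctss. After the single dose they ranged from -0.18 to 0.024 for Ctsb, -1.09 to 0.53 for Ctse and -0.049 to 0.58 for Ctsl. For LPS-tolerant against singly stimulated, Ctss ranged from -0.0985 to 0.0995. For LPS-tolerant against LPS-primed, Ctsa ranged from -0.12 to 0.089, Ctsb from -0.13 to 0.046, Ctsc from -0.35 to 0.060, Ctsd from -0.0905 to 0.12 and Ctsz from -0.087 to 0.21. For carboplatin in LPS-primed BMDMs, Ctsc ranged from -0.22 to 0.32, Ctsk from -0.024 to 0.34, Ctsl from -0.093 to 0.47 and Ctsz from -0.092 to 0.18. In LPS-tolerant BMDMs, Ctsa ranged from -0.18 to 0.073, Ctsc from -0.069 to 0.33, Ctsd from -0.19 to 0.065, Ctsh from -0.037 to 0.13, Ctsk from -0.032 to 0.40, Ctsl from -0.15 to 0.43 and Ctsz from -0.046 to 0.29. In the difference between both responses, Ctsb ranged from -0.062 to 0.12, Ctsh from -0.088 to 0.12, Ctsl from -0.25 to 0.41 and Ctss from -0.023 to 0.22.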

Other observations

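Ctsk was set beside 9 osteoclast markers, since its protease is known from osteoclasts. Of the 7 markers tested, Acp5 and Mmp9 rose and Atp6v0d2, Itgb3 and Nfatc1 fell with LPS priming, where Ctsk did not pass the test. Itgb3 was at the floor in LPS-primed samples, so a call as lower was the only one open to it with priming. After the single dose Acp5 and Ocstamp rose and Nfatc1 fell, while Ctsk fell. Ocstamp was above the floor of 3 counts in only 3 of 18 samples, with at most 38 counts. A call as higher was therefore the only one open to Ocstamp after the single dose. The summed level of the 9 markers was 121 to 176 CPM in unstimulated, 155 to 191 CPM in singly stimulated, 93.6 to 159 CPM in LPS-primed and 106 to 208 CPM in LPS-tolerant samples. Calcr and Oscar had at most 7 and 3 counts in any sample. The part of these markers in the Ctsk results was not tested.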
